A study of Bos grunniens x Bos taurus and Bos grunniens with 6 samples.

Results

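Collagen genes and the genes for enzymes that modify collagen were followed in the testes of cattle-yak and yak. Members were taken by symbol from the table of expression values: the collagen chains (COL followed by a type and a chain number), the prolyl 3-hydroxylases P3H1 to P3H4, the prolyl 4-hydroxylase subunits P4HA1 to P4HA3, the lysyl hydroxylases PLOD1 to PLOD3, LOX and LOXL1 to LOXL4, and PCOLCE with PCOLCE2. The rule found 59 of 18918 gene rows under 58 symbols, since COL4A2 stands on 2 rows. Of these, 42 rows are collagen chains and 17 are enzymes or enhancers. COL4A6, COL7A1, COL18A1 and COL6A4 were not analysed here under those symbols. Symbols that the table writes in lower case, such as Col3a1, are given in capitals.

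The libraries were bulk mRNA sequencing of testis tissue from 3 cattle-yaks (TES5, TES6 and TES7) and 3 Gannan yaks (Yak8, Yak9 and Yak10), all males of 4 years. The study's methods describe small blocks cut from the middle part of the testis. The cattle-yaks were first-generation hybrids of a Jersey cattle sire and a Gannan yak dam, a cross whose males are sterile. Each library stands for 1 animal. The 2 groups were kept in different counties (yak in Linxia County, cattle-yak in Xiahe County), so genotype and place cannot be told apart. The labels give castration as the source of all testes, while the study's methods give castration for the cattle-yaks and euthanasia for the yaks, so collection and genotype cannot be told apart either. Reads of both groups were mapped to a yak genome although the hybrids also carry cattle alleles, and the part of mapping in the differences was not tested.

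Collagens are proteins of 3 chains wound into a helix. Fibrillar collagens form the tensile fibres of connective tissue, type IV collagen forms the sheet of basement membranes, and other types tie fibres to each other, to cells or to basement membranes. In the endoplasmic reticulum, hydroxylases modify prolines and lysines of the new chains, which stabilises the helix and prepares it for crosslinking, and the lysyl oxidases start the crosslinks outside the cell. In the testis, a basement membrane and a layer of collagen and contractile peritubular myoid cells surround each seminiferous tubule, and Sertoli cells sit on the inner side of that membrane.

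Values are FPKM (fragments per kilobase of transcript, scaled to library depth), which are per length, so levels of different genes can be set side by side. A gene was tested when its mean over the 6 animals was at least 0.5 FPKM. The test was limma on log2(FPKM + 1), a scale that understates the change of low genes. A gene is said to have risen in cattle-yak, or fallen, when the Benjamini-Hochberg adjusted p was under 0.05 and the log2 difference (cattle-yak minus yak) was beyond 1 in that direction. Libraries held 11175100 to 13136129 fragments on genes, and 1 fragment on a gene of 1 kb was worth 0.0761 to 0.0895 FPKM. Of the 59 members, 53 were above 0 in every library and 28 had at least 100 fragments in every library.

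Of 49 members tested, 28 rose in cattle-yak (57.1%) and 8 fell (16.3%), where 33.4% of all 15042 genes tested rose and 20.8% fell. The median log2 difference was 1.23 over the tested members and 0.51 over all genes tested, and the members' median turned to -1.03 once libraries were centred on Sertoli markers (a scaling described with the marker lists). Members that passed the level filter only through the group in which they were high had to differ, so these shares describe the members and carry no test of the list. The libraries did not overlap between groups for 42 of the 49. Cattle-yak lay above in 32 of them and yak in 10, where 53.9% of all genes tested had cattle-yak above and 30.2% had yak above. Of 32 collagens tested, 18 rose and 5 fell (median 1.43), and of 17 enzymes and enhancers 10 rose and 3 fell (median 1.19), medians that turned to -0.83 and -1.07 when centred in that way.

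The make-up of the tissue moved with the group, and in bulk samples fewer cells of a type and less RNA per cell cannot be told apart. All 4 spermatid markers with a row fell (summed level 14.3 to 66.6 FPKM in cattle-yak, 7396 to 8996 in yak), and none was at 0. All 11 rows of Sertoli markers rose, with a median log2 difference of 2.24 (2482 to 2645 FPKM against 505 to 569). All 7 myoid markers rose (median 1.92, 590 to 788 against 120 to 148), as did all 7 of fibroblast-like stroma (median 2.37, 208 to 269 against 42.6 to 58.0) and all 8 rows of Leydig markers (median 1.90). Endothelial markers were mixed, with 3 of 7 risen and VWF fallen, and so were macrophage markers, with 2 of 6 risen and 2 fallen. Spermatogonial markers rose in 4 of 5 (median 1.99). Spermatocyte markers were mixed, with 1 of 5 risen (SYCP3) and 1 fallen (PIWIL1). Of all genes tested, 33.4% rose and 20.8% fell. The part of these shifts in the results on collagens was not tested. Differences are therefore also given after the mean log2 level of the Sertoli markers was set equal in every library. That step took 2.27 from every log2 difference and moved the median of all genes from 0.51 to -1.75. A scaling by median of ratios moved it to 0.014. Centred on the Sertoli markers, the medians of the myoid, Leydig and fibroblast-like lists were -0.34, -0.36 and 0.10.

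Among the fibrillar collagens, COL1A1, COL1A2, COL3A1, COL5A1 and COL5A2 rose in cattle-yak. COL2A1 and COL11A2 fell, while COL5A3, COL11A1, COL24A1 and COL27A1 did neither. Of all genes tested, 33.4% rose and 20.8% fell. Of the 11 fibrillar chains tested, 5 rose (45.5%), 2 fell (18.2%) and 4 did neither, with a median of 0.95. Scaled by median of ratios the median came to 0.48, and centred on the Sertoli markers it turned to -1.32. It is the value of COL27A1, a thinly covered gene, and it came to 0.58 without TES6. COL1A1, a chain of type I collagen, was 49.9, 61.8 and 47.1 FPKM in TES5, TES6 and TES7 and 7.63, 5.73 and 6.37 FPKM in Yak8, Yak9 and Yak10. The groups did not overlap, and the cattle-yak mean was 8.05-fold that of yak (log2 difference 2.83 ± 0.15 SE, adjusted p = 8.8e-07). COL1A2, its partner chain, was 104.4, 150.3 and 111.9 FPKM against 21.0, 17.7 and 19.2 FPKM, a 6.33-fold difference. COL3A1, the single chain of type III collagen, was 126, 152 and 136 FPKM against 23.8, 19.99 and 19.8 FPKM, or 6.53-fold. Every cattle-yak library lay above every yak library for all 3 genes. On the log2(FPKM + 1) scale, only these fibrillar chains stayed positive after centring on the Sertoli markers, by 0.56, 0.32 and 0.39.

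Type V collagen sits inside type I fibrils and sets their width. COL5A1 was 7.25, 9.54 and 6.07 FPKM in cattle-yak and 0.933, 1.024 and 1.09 FPKM in yak (log2 difference 2.08). COL5A2 was 9.05, 12.5 and 9.67 FPKM against 1.71, 1.86 and 2.45 FPKM (log2 difference 1.92). Neither overlapped between groups, and both turned to slightly negative values when centred on the Sertoli markers (-0.19 and -0.35). That scale understates the change of genes this low in yak. Uncentred, the differences were 2.77 and 2.32 with a pseudocount of 0.1. Centring was not repeated there, so the sign of both chains against the Sertoli markers is not settled. COL5A3, another chain of the type, was 1.81, 3.06 and 1.90 FPKM in cattle-yak and 2.27, 2.07 and 2.02 FPKM in yak. Its groups overlapped, and the log2 difference of 0.04 had a 95% interval from -0.38 to 0.46 (adjusted p = 0.839). COL11A1, also low, was 0.496, 0.780 and 0.549 FPKM against 0.421, 0.333 and 0.504 FPKM, with TES5 inside the yak range.

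The fibrillar chains that fell were low in cattle-yak in every library. COL11A2 was 0.864, 0.932 and 0.702 FPKM in cattle-yak and 8.57, 7.53 and 9.70 FPKM in yak, a level 10.3-fold higher in yak (log2 difference -2.39 ± 0.15 SE, adjusted p = 2.3e-06). COL2A1, the chain of cartilage fibrils, was 0.303, 0.301 and 0.463 FPKM against 4.06, 2.99 and 5.16 FPKM, 11.4-fold higher in yak (log2 difference -1.88). In yak, then, COL11A2 stood above COL5A1 and COL5A2 in every animal, and in cattle-yak below both in every animal. COL24A1 was 0.525, 0.703 and 0.437 FPKM against 2.08, 1.80 and 1.78 FPKM, with no overlap, and its log2 difference of -0.89 did not pass the size threshold. It passed with a pseudocount of 0.1 (-1.62). COL27A1 was 2.76, 9.15 and 4.94 FPKM against 2.80, 2.65 and 1.26 FPKM on a gene model of 489 bases and 8 to 50 fragments a library. TES5 lay inside the yak range, and the 95% interval of its log2 difference, 0.11 to 1.79, was wide. It passed as higher with a pseudocount of 0.1 (1.21) and turned to -1.32 when centred on the Sertoli markers.

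The make-up of the fibrillar pool differed between the groups. COL1A1, COL1A2 and COL3A1 made up 92.4%, 90.8% and 92.3% of all fibrillar FPKM in TES5, TES6 and TES7 and 69.7%, 68.2% and 65.5% in Yak8, Yak9 and Yak10. A share within a library does not depend on how libraries are scaled to each other, and the groups did not overlap. Within type I collagen, whose common form holds 2 COL1A1 chains and 1 COL1A2 chain, COL1A2 transcripts exceeded COL1A1 in every library. The ratio was 2.09, 2.43 and 2.38 in cattle-yak and 2.76, 3.09 and 3.02 in yak. COL3A1 over COL1A1 was 2.53, 2.47 and 2.90 against 3.12, 3.49 and 3.11. Both ratios were lower in every cattle-yak.

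**Figure D1:**
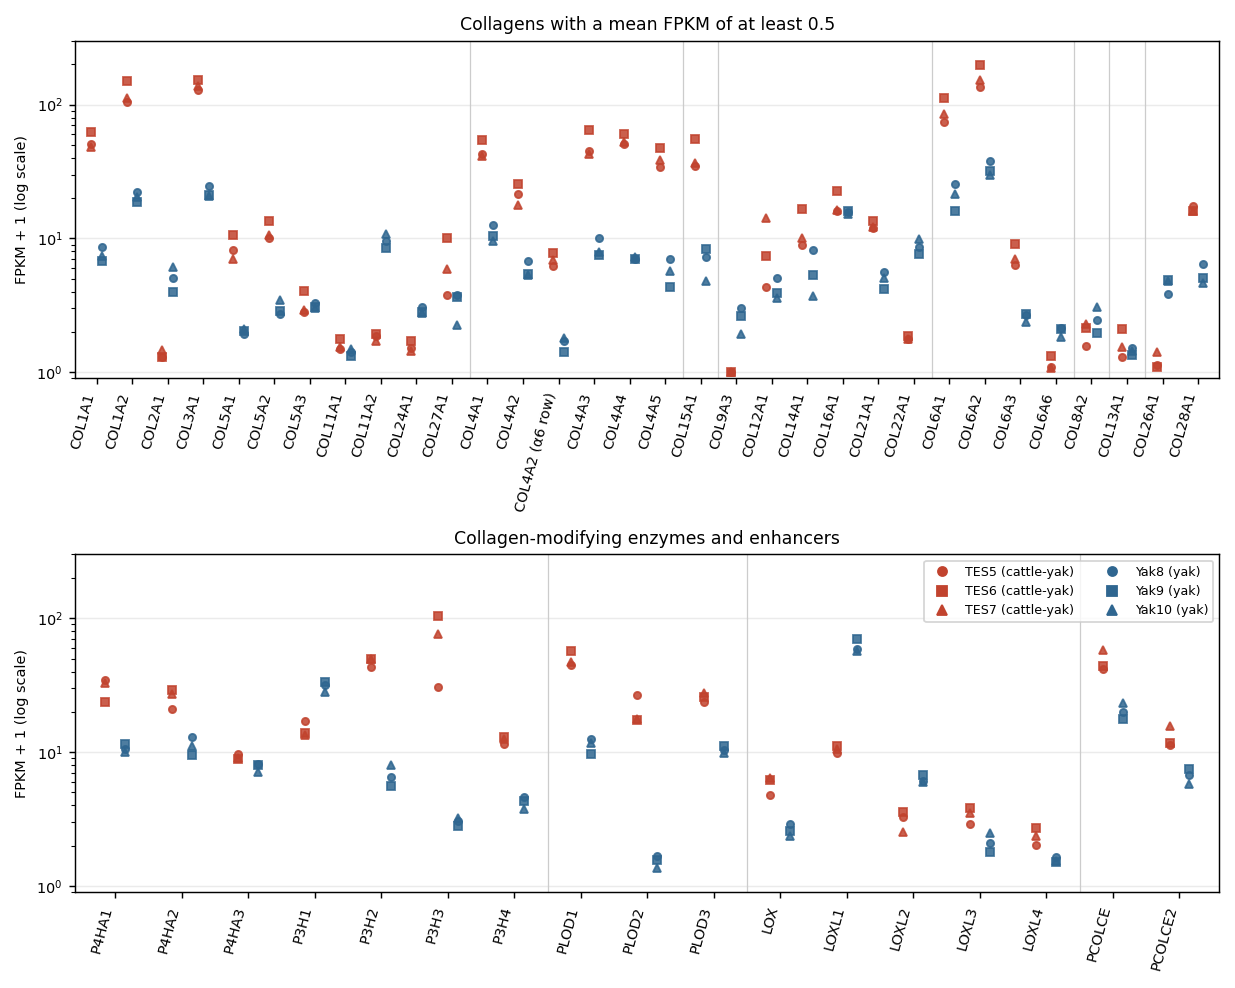
Level of each member tested in each library, on a log axis of FPKM + 1, with collagens and enzymes in separate panels, cattle-yak (TES5 to TES7) and yak (Yak8 to Yak10) in separate colours. COL1A1, COL1A2, COL3A1, the type IV chains, COL6A1, COL6A2 and COL6A3 stand higher in cattle-yak, while COL2A1, COL11A2, COL22A1, LOXL1 and P3H1 stand higher in yak, in FPKM as deposited. On the log2(FPKM + 1) scale, COL4A1, both COL4A2 rows, COL6A1 and COL6A3 turn negative when centred on Sertoli markers.

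The type IV collagens, the chains of basement membranes, rose in cattle-yak as a set. All 6 rows were tested and all 6 rose, where 33.4% of all genes tested rose. Differences ran from 1.87 to 2.94, with a median of 2.33. Scaled by median of ratios the median came to 1.85 with all 6 still higher, where 17.7% of all genes were. Centred on the Sertoli markers the median came to 0.07. COL4A1 and COL4A2 form the network found in nearly every basement membrane. COL4A1 was 41.9, 53.2 and 40.0 FPKM in cattle-yak and 11.6, 9.43 and 8.64 FPKM in yak, 4.55-fold (log2 difference 2.08 ± 0.15 SE, adjusted p = 5.1e-06). COL4A2 was 20.4, 24.6 and 16.6 FPKM against 5.83, 4.43 and 4.36 FPKM, 4.22-fold. These are the smallest folds of the 6, and when centred on the Sertoli markers both chains turned to negative values (-0.19 and -0.40).

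COL4A3, COL4A4 and COL4A5 assemble with each other into a second network, known best from the filter of the kidney. COL4A3 was 44.2, 63.6 and 41.8 FPKM against 9.06, 6.51 and 6.90 FPKM, 6.66-fold (log2 difference 2.57). COL4A4 was 49.8, 59.7 and 51.3 FPKM in cattle-yak and stayed between 6.01 and 6.24 FPKM in yak, 8.78-fold (2.94 ± 0.11 SE, adjusted p = 2.5e-07). COL4A5 was 33.5, 46.4 and 37.3 FPKM against 6.03, 3.35 and 4.75 FPKM, 8.29-fold (2.82). No library of one group reached the range of the other for any of these chains, and they stayed positive when centred on the Sertoli markers, by 0.30, 0.67 and 0.56. The second row with the symbol COL4A2 (ENSBGRG00000021026) carries the description of the type IV alpha 6 chain, which pairs with COL4A5, so its identity is uncertain. It was 5.25, 6.83 and 5.95 FPKM against 0.714, 0.410 and 0.804 FPKM, 9.35-fold, and turned to -0.17 when centred on the Sertoli markers. Uncentred, its difference was 2.09 on log2(FPKM + 1) and 3.07 with a pseudocount of 0.1, so the centred sign is not settled.

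The balance of the networks differed within libraries. Summed FPKM of COL4A3, COL4A4 and COL4A5 over that of COL4A1 and COL4A2 was 2.05, 2.18 and 2.30 in cattle-yak and 1.21, 1.15 and 1.38 in yak (2.18 ± 0.129 against 1.25 ± 0.118, SD, n = 3 each). The gap between the groups exceeded the spread within them. Ratios of type IV chains that pair with each other differed less between the groups. COL4A1 over COL4A2 was 2.05, 2.16 and 2.41 against 1.99, 2.13 and 1.98, which overlapped. COL4A3 over COL4A4 was 0.889, 1.065 and 0.814 against 1.507, 1.072 and 1.106. It was lower in every cattle-yak, with TES6 just under Yak9.

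Fibrillar and basement membrane collagens were set against each other directly. Summed fibrillar FPKM was 304, 402 and 320.2 in cattle-yak and 75.3, 63.7 and 69.4 in yak, and summed type IV FPKM was 195, 254 and 193 against 39.3, 30.2 and 31.7. The ratio of fibrillar to type IV was 1.56, 1.58 and 1.66 in cattle-yak and 1.92, 2.11 and 2.19 in yak (1.60 ± 0.054 against 2.07 ± 0.138, SD, n = 3 each). Every cattle-yak lay below every yak, so both pools were higher in cattle-yak FPKM as deposited and the type IV pool by the larger factor. With 3 animals against 3, an exact two-sided permutation test cannot give a p under 0.10, and no test of these ratios was made.

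**Figure D2:**
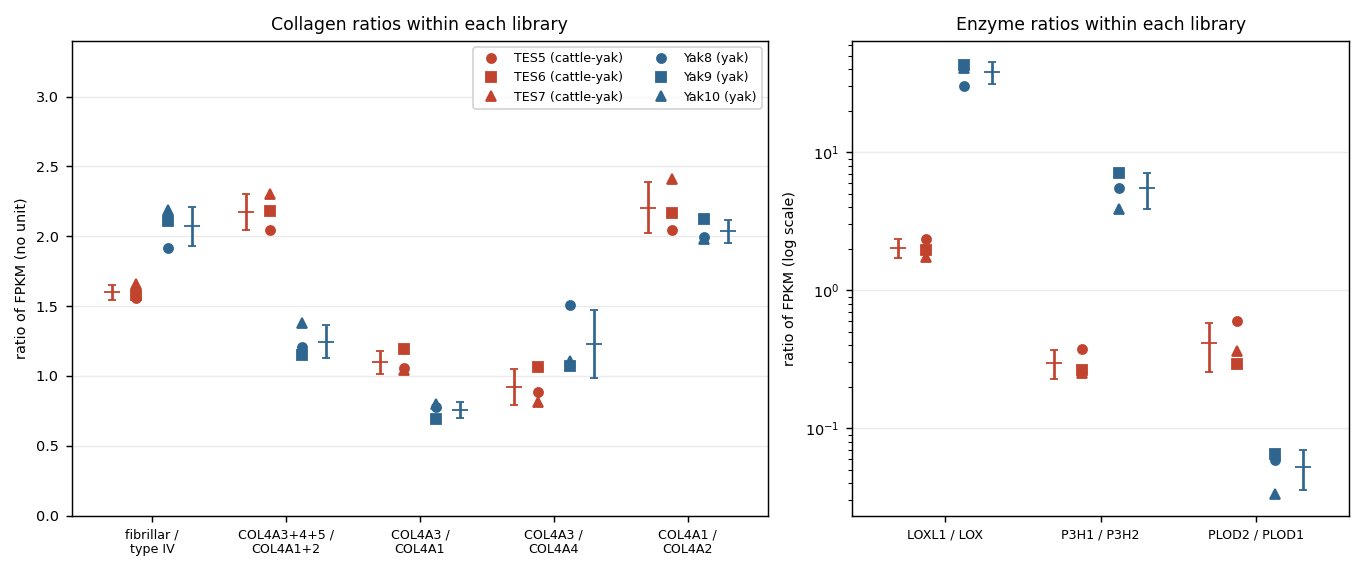
Ratios of FPKM within each library for collagen pools and chains (left, linear axis) and for enzyme pairs (right, log axis), 1 point per animal with the mean and SD of each group. The fibrillar to type IV ratio is lower in all 3 cattle-yaks, COL4A3 to COL4A5 over COL4A1 and COL4A2 is higher, COL4A1 over COL4A2 overlaps, and the LOXL1 to LOX and P3H1 to P3H2 ratios are higher in yak.

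COL15A1, which lies where basement membranes meet the fibres around them, rose too. It was 33.5, 54.2 and 35.4 FPKM against 6.23, 7.36 and 3.83 FPKM, 7.06-fold without overlap (log2 difference 2.63, and 0.36 when centred on the Sertoli markers).

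Type VI collagen, which forms beaded filaments near cells, held the highest collagen transcript in both groups. COL6A2 was 135, 197 and 153 FPKM in cattle-yak and 36.7, 31.0 and 28.7 FPKM in yak, 5.03-fold (2.28 ± 0.16 SE, adjusted p = 3.5e-06, and 0.018 when centred on the Sertoli markers). COL6A1 was 73.6, 110.4 and 84.7 FPKM against 24.7, 14.9 and 20.3 FPKM, 4.48-fold (2.12, and -0.15 when so centred). Both rose with no overlap. COL6A3 was far lower, at 5.38, 8.12 and 5.98 FPKM against 1.69, 1.73 and 1.37 FPKM, and it rose as well (1.52, and -0.75 when so centred). COL6A2 over COL6A1 was 1.83, 1.79 and 1.80 against 1.49, 2.08 and 1.41. That ratio varied little in cattle-yak, and the yak values fell on both sides of it. COL6A6 was 0.0988, 0.327 and 0.0756 FPKM against 1.13, 1.11 and 0.844 FPKM, with no overlap, and did not pass the size threshold (log2 difference -0.80). It did with a pseudocount of 0.1 (-2.19), with voom on recovered fragments (-2.87) and with median-of-ratios scaling (-1.01).

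The FACIT collagens, which lie on the surface of fibrils and are interrupted in their helix, included chains that rose and chains that fell. Of 6 tested, 2 rose and 2 fell, and 2 of 6 is close to the 33.4% of all genes that rose. Of all genes tested, 20.8% fell. COL21A1 was 11.0, 12.6 and 11.2 FPKM in cattle-yak and 4.65, 3.21 and 4.06 FPKM in yak (log2 difference 1.35, and -0.92 when centred on the Sertoli markers). COL14A1 was 7.95, 15.6 and 9.03 FPKM against 7.25, 4.30 and 2.71 FPKM. COL14A1 passed with a difference of 1.07 (adjusted p = 1.5e-02), which was 0.80 without TES6, 0.79 without Yak10 and 0.53 with median-of-ratios scaling, all under the size threshold, and -1.20 when centred on the Sertoli markers. COL16A1 was nearly level, at 14.96, 21.7 and 15.2 FPKM against 14.6, 15.1 and 14.3 FPKM, with a 95% interval of the log2 difference from -0.16 to 0.56. COL12A1 was 3.35, 6.41 and 13.2 FPKM against 4.06, 2.90 and 2.57 FPKM. TES6 and TES7 lay above every yak library and TES5 inside the yak range, so the groups overlapped (adjusted p = 5.8e-02). COL12A1 passed as higher with voom (1.07) and turned to -1.36 when centred on the Sertoli markers.

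COL22A1, found at junctions of muscle and tendon, fell. It was 0.761, 0.870 and 0.777 FPKM in cattle-yak and 7.64, 6.59 and 8.86 FPKM in yak, 9.59-fold higher in yak (log2 difference -2.26 ± 0.15 SE, adjusted p = 3.3e-06). COL9A3, a chain of the type IX collagen of cartilage, was listed at 0 in all 3 cattle-yaks and at 2.02, 1.63 and 0.929 FPKM in yak, from 97, 78 and 44 fragments. Against a floor of 3 fragments over the cattle-yak group it was at least 64.4-fold lower there. The other type IX chains did not share that pattern. COL9A2 had 2, 7 and 9 fragments in cattle-yak and none in yak, at least 6.80-fold higher in cattle-yak on the same floor, and COL9A1 was 0.599, 0.431 and 0.764 FPKM against 0.0771, 0.271 and 0.429 FPKM. Neither of these was tested, being under the level filter.

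Among the remaining collagens, COL28A1 rose and COL26A1 fell. COL28A1 was 16.5, 14.9 and 14.9 FPKM in cattle-yak and 5.47, 4.03 and 3.64 FPKM in yak, 3.52-fold (log2 difference 1.62, and -0.64 when centred on the Sertoli markers). COL26A1 was 0.127, 0.101 and 0.422 FPKM against 2.87, 3.85 and 3.80 FPKM, 16.2-fold higher in yak (log2 difference -1.89). Neither pair of groups overlapped. COL8A2 and COL13A1 overlapped between groups, with log2 differences of -0.32 and 0.18 that did not pass. COL13A1 was 0.301, 1.12 and 0.538 FPKM against 0.509, 0.340 and 0.446 FPKM.

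In all, 10 collagens were under the level filter, with no group mean above 0.847 FPKM. COL10A1, the collagen of enlarged cartilage cells, had 0, 1 and 0 fragments in cattle-yak and 16, 30 and 25 in yak, a ratio of 62.6 with a 95% counting interval from 10.9 to 2508. COL25A1 had 3, 1 and 3 fragments against 9, 5 and 11. COL19A1 was 0.815, 0.601 and 0.856 FPKM against 0.245, 0.334 and 0.0675 FPKM, higher in every cattle-yak. COL6A5, COL8A1, COL17A1, COL20A1 and COL23A1 overlapped between groups. Intervals and floors cover counting error only.

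Prolyl hydroxylases came next. Of 7 tested, 5 rose (71.4%) and 1 fell (14.3%), against 33.4% and 20.8% of all genes tested. P4HA1, the main catalytic subunit of prolyl 4-hydroxylase, was 33.5, 22.8 and 32.1 FPKM in cattle-yak and 9.61, 10.4 and 8.98 FPKM in yak, 3.04-fold (1.495 ± 0.16 SE, adjusted p = 4.2e-05). P4HA2 was 19.96, 28.1 and 26.1 FPKM against 12.1, 8.55 and 10.1 FPKM (log2 difference 1.19). Both rose without overlap, and both turned negative when centred on the Sertoli markers (-0.77 and -1.07). P4HA3 was 8.69, 7.87 and 8.07 FPKM against 7.20, 7.06 and 6.09 FPKM, a small gap that did not pass (0.24, adjusted p = 0.109) and turned to -0.30 with median-of-ratios scaling. P4HA1 over P4HB, the gene of the shared beta subunit, was 0.089, 0.060 and 0.078 against 0.058, 0.061 and 0.061, and the groups overlapped.

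The prolyl 3-hydroxylases, which modify single prolines, split. P3H1 was 16.0, 12.9 and 12.4 FPKM in cattle-yak and 30.5, 32.5 and 27.3 FPKM in yak, 2.19-fold higher in yak (log2 difference -1.08 ± 0.13 SE, adjusted p = 9.2e-05). P3H2, known to act on type IV collagen, was 42.5, 48.6 and 48.9 FPKM against 5.49, 4.57 and 7.08 FPKM, 8.17-fold higher in cattle-yak (2.84, adjusted p = 1.1e-06). The order of both genes was thus opposite in the groups, and P3H1 over P3H2 was 0.377, 0.264 and 0.252 in cattle-yak and 5.55, 7.11 and 3.86 in yak. P3H3 was 29.4, 102 and 75.4 FPKM against 2.07, 1.79 and 2.20 FPKM, 34.2-fold. It had the largest log2 difference of the tested members (4.37 ± 0.39 SE, adjusted p = 1.5e-05) and a wide spread within cattle-yak. P3H4, a family member without the enzyme's catalytic activity, was 10.6, 12.01 and 11.5 FPKM against 3.63, 3.28 and 2.74 FPKM and rose (1.56, and -0.71 when centred on the Sertoli markers).

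Each of the 3 lysyl hydroxylases rose, where 33.4% of all genes tested rose. PLOD2, which hydroxylates the telopeptide lysines used in stable crosslinks, was 25.9, 16.3 and 16.7 FPKM in cattle-yak and 0.680, 0.558 and 0.354 FPKM in yak. The counts behind it were 1132, 675 and 716 fragments against 33, 27 and 17. The difference was 37.0-fold (3.73 ± 0.20 SE, adjusted p = 1.1e-06), the largest linear fold among the tested members above 0 in every library. PLOD1, which acts within the helix, was 43.5, 56.1 and 46.1 FPKM against 11.5, 8.61 and 10.6 FPKM, 4.74-fold (2.14, and -0.13 when centred on the Sertoli markers). PLOD3, which can also add sugars to hydroxylysine, was 22.6, 24.9 and 26.8 FPKM against 9.32, 10.2 and 8.76 FPKM (1.31, and -0.96 when so centred). PLOD2 over PLOD1 was 0.595, 0.291 and 0.362 in cattle-yak and 0.059, 0.065 and 0.033 in yak, so the ratio was higher in every cattle-yak whatever the scaling.

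P3H3 and PLOD2 were the only members still called higher when libraries were centred on the Sertoli markers, by 2.10 and 1.46, where 0.186% of all genes tested were called higher and 74.9% lower. After that centring 25 of the 49 members were called lower. Centring on Sertoli, Leydig and myoid markers together left the same pair higher, by 2.21 and 1.57 (0.253% of all genes), and called 23 lower (71.6%). With median-of-ratios scaling 21 members rose (17.7% of all genes) and 10 fell (27.8%). Those that no longer passed were COL14A1 (0.53), COL21A1 (0.82), P4HA1 (0.91), P4HA2 (0.61), PLOD3 (0.73), LOX (0.68) and PCOLCE (0.64), and those that newly passed as lower were COL24A1 (-1.21) and COL6A6 (-1.01).

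The lysyl oxidases, summed, were higher in yak. Their sum lay between 17.8 and 22.4 FPKM in the cattle-yaks and between 64.8 and 77.1 FPKM in the yaks. Only in the yaks was most of it LOXL1. LOXL1, known for its part in elastic fibres as well as collagen, was 8.90, 10.2 and 9.47 FPKM against 58.4, 68.5 and 56.4 FPKM. It was 6.42-fold higher in yak (log2 difference -2.56 ± 0.12 SE, adjusted p = 4.7e-07) and was the most abundant of the 59 members there, against rank 28 in cattle-yak. LOXL2, which crosslinks type IV collagen, was 2.25, 2.55 and 1.51 FPKM against 5.10, 5.71 and 5.01 FPKM and fell (-1.03, adjusted p = 5.8e-04). Its difference was under the size threshold without TES7 (-0.88) and without Yak9 (-0.98).

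LOX itself moved the other way. It was 3.77, 5.16 and 5.39 FPKM in cattle-yak and 1.92, 1.59 and 1.38 FPKM in yak (log2 difference 1.13, adjusted p = 3.6e-04, and -1.14 when centred on the Sertoli markers). With median-of-ratios scaling its difference was 0.68, under the size threshold. LOXL1 over LOX was 2.36, 1.97 and 1.76 against 30.4, 43.1 and 40.9, with no overlap and no dependence on scaling. LOXL3 and LOXL4 were under 3 FPKM in every library and did not pass the size threshold, with differences of 0.69 and 0.59. Both passed as higher with a pseudocount of 0.1 (1.07 and 1.13) and with voom (1.13 and 1.24), and both turned negative when centred on the Sertoli markers (-1.58 and -1.67).

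PCOLCE, which speeds the removal of the C-terminal propeptide of fibrillar procollagens, rose, at 40.7, 43.0 and 57.3 FPKM against 18.8, 16.7 and 22.4 FPKM. The difference was 2.43-fold (log2 difference 1.23, and -1.03 when centred on the Sertoli markers). PCOLCE2 was 10.4, 10.8 and 14.7 FPKM against 5.70, 6.42 and 4.73 FPKM, without overlap, and its difference of 0.96 was just under the size threshold. It passed with a pseudocount of 0.1 (1.07) and with voom (1.08), and turned to -1.31 when centred on the Sertoli markers.

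**Figure D3:**
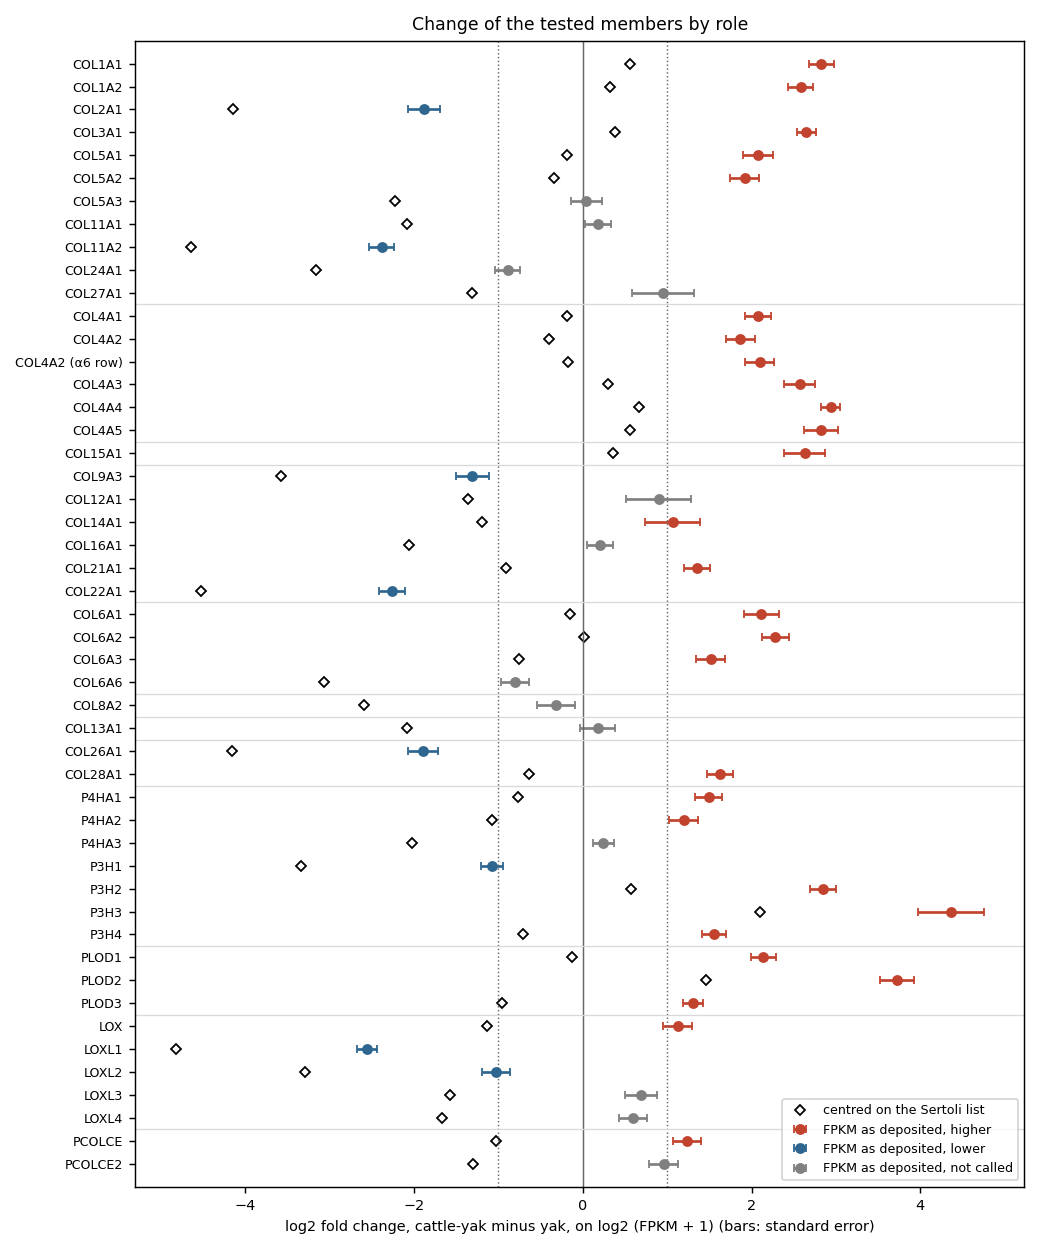
Log2 difference (cattle-yak minus yak) with its SE for each of the 49 members tested, by role, with the same difference after centring on the Sertoli markers as open diamonds. Most collagens and enzymes lie to the right of 0 as deposited and left of it once centred, P3H3 and PLOD2 stay furthest to the right, and LOXL1, COL11A2 and COL22A1 lie furthest to the left as deposited.

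The order of levels also differed. In yak the highest means were those of LOXL1 (61.1 ± 6.49 FPKM, SD, n = 3), COL6A2 (32.1 ± 4.11), P3H1 (30.1 ± 2.62) and COL3A1 (21.2 ± 2.26). COL6A2 and P3H1 overlapped in their libraries there. In cattle-yak the highest were COL6A2 (162 ± 32.1 FPKM), COL3A1 (138 ± 13.1), COL1A2 (122 ± 24.6) and COL6A1 (89.6 ± 18.9). That order held within every cattle-yak library, although the ranges over animals of each neighbouring pair overlapped. Collagens together took 0.136%, 0.190% and 0.142% of all FPKM in cattle-yak and 0.040%, 0.033% and 0.033% in yak.

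TES6 was the highest cattle-yak library for 26 of the 32 collagens tested and for 34 of all 49 members tested, where it was the highest for 37.8% of all genes tested. Yak8 was the highest yak library for 26 of the 49, against 32.7% of all genes tested. Leaving either out changed few calls, and 27 to 31 members rose and 7 to 8 fell across the 6 fits that each left out 1 library. The median coefficient of variation over the tested members was 19.9% in cattle-yak and 15.7% in yak.

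Partner genes of the pathway were read from lists of their own. Of 17 rows tested for folding, secretion and processing of collagen, 13 rose (76.5%) and 1 fell (5.88%). Over all genes tested, 33.4% rose and 20.8% fell. The median of the 17 rows was 1.44 and turned to -0.83 when centred on the Sertoli markers. SERPINH1, the collagen chaperone HSP47, was 287, 296 and 256 FPKM in cattle-yak and 47.9, 48.2 and 49.1 FPKM in yak (log2 difference 2.50). COLGALT1 and COLGALT2, which add galactose to hydroxylysine, rose by 2.37 and 2.44, and PXDN, which links type IV collagen chains, by 2.12. The row that fell was 1 of 2 with the symbol MIA3 (-1.04, with the other at 1.30). The row that fell was the more abundant, with means of 59.4 FPKM in cattle-yak and 123 FPKM in yak. The other had means of 23.4 and 9.02 FPKM. MIA3 helps load procollagen into transport carriers, and reads may be split between its rows.

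Of 5 collagen receptors tested, DDR1 rose (1.82) and ITGA11 fell, with a list median of -1.70 when centred on the Sertoli markers. ITGA11, the integrin alpha 11 chain that binds fibrillar collagen, was 0.132, 0.0522 and 0.0336 FPKM in cattle-yak and 6.98, 10.9 and 12.7 FPKM in yak (-3.35 ± 0.22 SE, adjusted p = 2.4e-06). Of 5 genes for collagen breakdown tested, CTSK, MMP14, MMP2 and MRC2 rose, by 1.86, 1.51, 1.04 and 1.07, with a list median of -1.19 when centred on the Sertoli markers. MMP13, a collagenase of cartilage and bone, fell, from 6.22, 6.55 and 8.65 FPKM in yak to 0.0392, 0.0415 and 0 FPKM in cattle-yak (-2.98). Beside these receptor and breakdown lists, 33.4% of all genes tested rose and 20.8% fell. With 5 genes tested in each list, no test against those shares was made. ITGA11 and MMP13 were near 0 in every cattle-yak. Both passed the level filter only through yak, so they had to differ, and their values and calls are given as description.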

How the data were processed

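Testis RNA from 6 animals was sequenced as stranded mRNA libraries with paired reads. The authors deposited 1 table of FPKM per gene on a yak annotation, with reads aligned by HISAT2 and FPKM computed with Cufflinks, as the study's methods state. The submitters' processing notes also name DESeq. Members and lists were chosen with earlier results of these data known. Genes with a mean of at least 0.5 FPKM over the 6 libraries (15042 of 18918) were log2-transformed after adding 1 and tested using R 4.3.3 and limma 3.58.1 (trended eBayes, two-sided, Benjamini-Hochberg over all genes tested), and tables were handled in Python 3.11.15 with pandas 2.3.3. The fit was run on simulated data in which a small set of well-expressed genes was raised in cattle-yak only. That run had no shift in tissue make-up, so it does not cover the shifts seen here. Whole fragments were recovered from the FPKM steps for 17973 genes (107838 values, 100% within 0.03 of a whole number) and tested with voom as an alternative, in which all 36 called members kept their call. Depth was 11175100 to 13136129 fragments.

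Named with every library's value were fibrillar and type IV chains with a group mean of at least 1 FPKM, other members with at least 10, members that fell, and the 3 nearest to no change. Some others are named beside them and were chosen after their values were seen. Groups came from the labels. Alternatives were a pseudocount of 0.1, no filter or a mean of at least 5 FPKM, median-of-ratios scaling, centring on marker lists, no trend, voom and leaving out each library. The authors' own fold changes and p-values were not used. No sequences are printed.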

Additional observations from a re-analysis of the deposited data

How the results depend on the processing

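The counts and medians depended most on scaling. Members called higher were 2 when centred on the Sertoli list (10 genes) and 2 on the Sertoli, Leydig and myoid lists (23 genes). Members called lower were 25 and 23 on these, and 2 with a mean of at least 5 FPKM. Over all genes 5023 rose in the fit as reported, 2660 with median-of-ratios scaling, 28 and 38 when centred on the Sertoli and on the joint lists, and 7916 by adjusted p alone. Genes called lower were 11262 and 10772 when centred. The fibrillar median was 2.62 with a mean of at least 5 FPKM (fewer genes tested), and reversed to -1.32 and -1.21 when centred. The type IV median was 2.88 with a pseudocount of 0.1, 2.57 with a mean of at least 5 FPKM, 1.85 with median-of-ratios scaling, 2.90 with voom, and 0.066 and 0.17 when centred.

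Leaving out 1 library each gave 27 to 31 members higher and 7 to 8 lower, 4904 to 5133 genes higher and 3076 to 3192 lower, fibrillar medians of 0.58 to 1.30 and type IV medians of 2.20 to 2.44. Without cattle-yak replicate 2 (TES6), COL5A3 reversed to -0.13 and COL13A1 to -0.016, with highest values over the single-library removals of 0.14 and 0.34.

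Centring subtracts the same 2.27 (Sertoli) or 2.16 (joint lists) from each log2 difference, so a gene near 0 in both groups reads as lower by about that much. The centred values are on log2(FPKM + 1), which understates the change of a gene that is low in yak. Centring was not repeated with a smaller pseudocount. Values that reversed, Sertoli list first and joint lists second, were -2.09 and -1.98 for COL11A1, -1.32 and -1.21 for COL27A1, -0.19 and -0.081 for COL5A1, -0.35 and -0.24 for COL5A2, -2.22 and -2.12 for COL5A3, -0.19 and -0.081 for COL4A1, -0.40 and -0.29 for COL4A2, -0.17 and -0.063 for the row described as alpha 6, -1.20 and -1.09 for COL14A1, and -2.07 and -1.96 for COL16A1. Others were -0.92 and -0.81 for COL21A1, -0.15 and -0.040 for COL6A1, -2.09 and -1.98 for COL13A1, -0.64 and -0.53 for COL28A1, -0.71 and -0.60 for P3H4, -0.77 and -0.66 for P4HA1, -1.07 and -0.96 for P4HA2, -0.13 and -0.018 for PLOD1, -0.96 and -0.85 for PLOD3, -1.03 and -0.92 for PCOLCE, and -1.31 and -1.20 for PCOLCE2. The remaining reversals, outside the rule for named genes, were -1.36 and -1.26 for COL12A1, -0.75 and -0.64 for COL6A3, -2.02 and -1.91 for P4HA3, -1.14 and -1.03 for LOX, -1.58 and -1.47 for LOXL3, and -1.67 and -1.56 for LOXL4. With median-of-ratios scaling COL11A1 reversed to -0.028, COL5A3 to -0.38, COL16A1 to -0.38, COL13A1 to -0.031 and P4HA3 to -0.30, and COL14A1, COL21A1, P4HA1, P4HA2, PLOD3, LOX and PCOLCE fell under the size threshold. The cause of these shifts beyond the subtraction itself was not tested. No paired analysis was possible because the labels give the groups no shared replicate number, the numbers used here follow the order of deposit, and the animals of the groups are different. Depth limits the members under 0.5 FPKM, and 3 animals a group limit every interval.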
